A study of Homo sapiens with 14 samples.

Results

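The intervals described here are the stretches near gene starts where STAT5 was found in cells with an activated RAC1/PAK1 pathway and where BCL6 had a peak in control cells. They are all distinct intervals of the authors' list of activator STAT5 intervals that share at least 1 bp with a control BCL6 peak. There were 3593 of them, 25.6% of the 14047 activator STAT5 intervals (95% exact Clopper-Pearson interval 24.9% to 26.3%) and part of 152412 distinct intervals in the 4 separate lists of the series. The share rests on peaks of either control BCL6 library: it was 13.8% or 15.8% with the peaks of 1 library alone and 3.84% with peaks that had a value in both. The 3593 are called shared intervals below, and the remaining 10454 are called the other activator STAT5 intervals.

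The material was DLD-1, an established line from a human colorectal adenocarcinoma, at passage 10 to 14, and binding was measured by chromatin immunoprecipitation with sequencing (ChIP-seq). The activator STAT5 group (2 libraries, antibody C-17) had the plasmid pEGFP-C1199Tiam1, which carries a form of TIAM1, an exchange factor that activates RAC1, and vehicle for 16 h. The control groups, with 2 BCL6 libraries (antibody N-3) and 2 STAT5 libraries, had the empty vector. An inhibitor BCL6 group (3 libraries), used for comparison, had the same TIAM1 plasmid and 20 microM of EHT 1864, a RAC inhibitor, for 16 h. In every group chromatin was taken 20 h after a transient transfection, so each sample can mix cells with and without plasmid. Whether the libraries of a group stem from separate cultures is not in the labels, and differences between them may therefore be technical only. With 2 libraries against 2, a two-sided exact permutation test cannot go below p = 0.333, and no test was made. Percentages have counting intervals only, and intervals of the genome are not replicates of a condition.

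STAT5 is a transcription factor that JAK kinases activate by phosphorylation downstream of cytokine and growth factor receptors, and it is mostly known as an activator of transcription. BCL6 is a zinc finger repressor of the BTB family, best known from germinal centre B cells, which recruits corepressors such as NCOR1 and BCOR. Both recognise related DNA words, TTCNNNGAA for STAT proteins and a core like TTCCTNGAA for BCL6, and a replacement of one by the other at the same promoter has been described as a switch between repression and activation.

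MicroRNA genes give a compact view of what lay beside the shared intervals, because their products can be printed whole. Of 135 microRNA genes with any activator STAT5 interval, 47 had a shared one (34.8%, 26.8% to 43.5%), against 28.5% of all 7669 named genes, so the share lay within counting error of the background. Mature sequences were found for 45 of these genes, with 47 shared intervals, in the RefSeq table (GRCh38.p14). A seed, bases 2 to 8 and in capitals here, sets most of the targets of a microRNA, and the sequences printed next are the products of different genes that had a seed in common, chosen because a shared seed marks a target family. They stand for 4 of the 5 shared seeds, and the fifth is that of the other arm of the let-7 genes.
hsa-miR-15b-5p: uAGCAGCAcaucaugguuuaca
hsa-miR-16-5p: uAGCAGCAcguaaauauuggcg
hsa-let-7a-5p: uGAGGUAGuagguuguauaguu
hsa-let-7f-5p: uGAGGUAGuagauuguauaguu
hsa-miR-1-3p: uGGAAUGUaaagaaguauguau
hsa-miR-206: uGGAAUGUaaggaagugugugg
hsa-miR-190a-5p: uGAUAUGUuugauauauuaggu
hsa-miR-190b-5p: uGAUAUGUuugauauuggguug

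The first pair belongs to the miR-15/16 family, known to target BCL2 and cyclins, and 3 of its genes had shared intervals. MIR15B and MIR16-2 shared 1 interval of 18 bp on chromosome 3 (160121581 to 160121598, GRCh37), with STAT5 values of 4 and 2 in the activator libraries and BCL6 values of 2 and 0 in the control libraries. MIR16-1, on chromosome 13, had 2 intervals of its own, at 50623220 to 50623327 (values 4 and 2 for STAT5, 3 and 0 for BCL6) and at 50624327 to 50624479 (3 and 3 for STAT5, 2 and 0 for BCL6). In all 3 intervals the second control BCL6 library had no value. MIRLET7A1 and MIRLET7F1, which give the let-7 products, also shared 1 interval, on chromosome 9 at 96937810 to 96938070, with STAT5 values of 4 and 2 and BCL6 values of 2 and 2, so all 4 libraries had a value there. The intervals at MIR1-1, MIR206, MIR190A and MIR190B had STAT5 values of 2 to 4 and a BCL6 value in only 1 control library each. MIR15B with MIR16-2, and the let-7 pair, lie side by side, so each of these pairs rests on 1 interval.

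The deposited values are whole numbers, 1 per interval and library, and were read as read counts of the peak an interval came from. They were low. In the first activator library 62.3% of the shared intervals had a value of 2, the lowest found in the list, and in the second 50.8%. In 1171 shared intervals (32.6%) both were 2, against 36.2% of the other activator STAT5 intervals. Only 8 and 43 shared intervals reached 10 or more in the first and second library. All activator STAT5 intervals had a value of at least 2 in both libraries, while the control BCL6 list also holds peaks of 1 library. In that list, 14.3% of the peaks under shared intervals and 8.92% of the remaining peaks had a value in both. Among the shared intervals, 1508 (42.0%) had a BCL6 value in the first control library alone, 1765 (49.1%) in the second alone and 320 (8.91%) in both. These counts use the values listed with the shared intervals. Of the 3519 on a single control peak, 251 had control values that differed from those of the same peak in the control BCL6 list, in 232 cases through a 0 in place of a value. The values of the 2 activator libraries were nearly unrelated across the 3593 shared intervals (Spearman rho 0.04), and likewise across the other activator STAT5 intervals (0.02). The many values tied at 2 limit these figures. An activator STAT5 value said little about a control BCL6 value (rho from -0.01 to 0.04). These correlations are across intervals of the same libraries and are given as descriptions.

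Shared intervals were wider and had somewhat higher STAT5 values than the others. Their median width was 165 bp against 134 bp. A value of at least 3 in both activator libraries was found in 19.5% of the shared and 16.0% of the other intervals, a difference of 3.49 percentage points (95% Newcombe interval 2.04 to 4.98). Within the 6 width classes this difference stayed positive, from 2.09 to 5.56 points, and its interval left out 0 only for intervals under 50 bp (2.03 to 9.44). The share of activator STAT5 intervals that lay on a control BCL6 peak rose from 19.7% (18.2% to 21.3%) at 1 to 49 bp to 32.4% (30.6% to 34.3%) at 250 bp or more. Along the smaller of the 2 STAT5 values it was 24.8% at 2, 28.4% at 3, 31.3% at 4, 35.4% at 5 and 39.2% at 6 to 9. It was 23.5% at 10 or more, with 4 of 17 intervals. Width moved with the value as well, with a median of 139 bp at a value of 2 and 185 bp at a value of 5. The rule of at least 1 shared bp favours wide intervals. Its part in the differences of width and value was not tested.

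**Figure D1:**
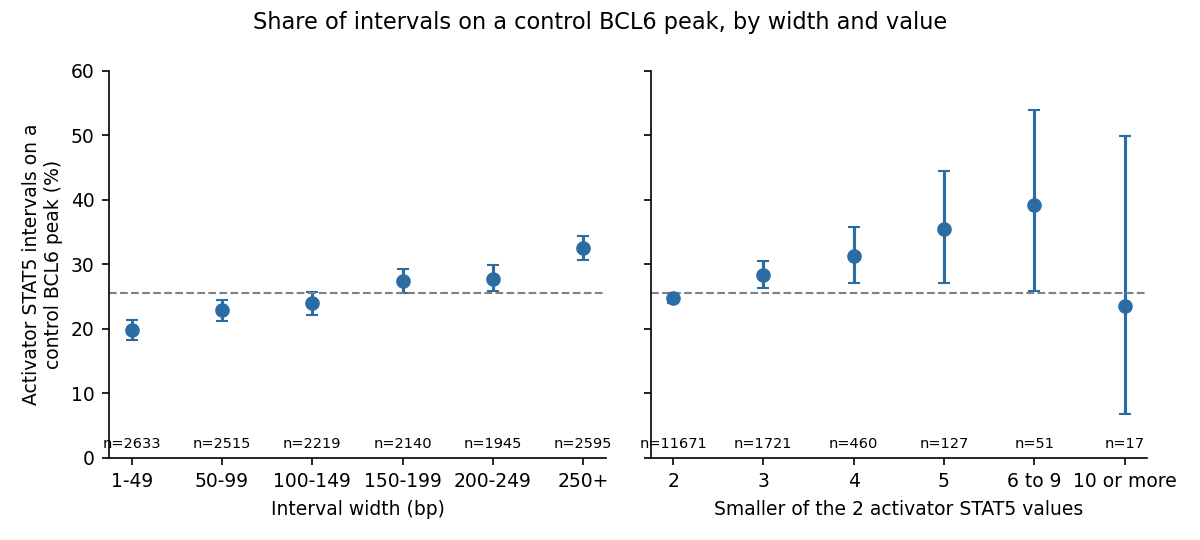
Share of activator STAT5 intervals that lie on a control BCL6 peak, in percent, by interval width in bp (left) and by the smaller of the 2 activator STAT5 values (right). Points are shares, bars exact 95% intervals for counting error, and the dashed line is 25.6%, the share over all intervals. The share climbs from 19.7% to 32.4% with width, and the highest value class rests on 17 intervals. Wide intervals meet the rule of at least 1 shared bp more easily.

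The overlap itself was mostly large. The median shared interval had 86.2% of its length, or 90 bp, under BCL6 peaks, 1462 lay wholly under them and 188 shared under 10 bp. A single BCL6 peak was met by 3519 and a pair of peaks by 74. None of the 14047 activator STAT5 intervals had a base in common with a control STAT5 peak, and 2651 ended directly beside one, so the list has the form of activator peaks with control STAT5 peaks cut out of them. Absence of overlap with control STAT5 is therefore a property of the list, as is direct contact, and very short intervals can be remnants of the cut. Direct contact was found for 716 shared intervals (19.9%) and 18.5% of the others (difference 1.42 points, -0.06 to 2.94), and for 9.94% or 12.3% of the shared ones with peaks of 1 control STAT5 library alone. Among intervals of 50 to 99 bp the shares were 32.1% and 23.4%, a difference of 8.61 points (4.45 to 12.9). A control STAT5 peak lay within 1 kb of 71.2% of the shared intervals and 66.4% of the others (difference 4.74 points, 2.99 to 6.46). Only 354 shared intervals (9.85%) were at gene starts with no control STAT5 interval at all, against 12.8% of the others (difference -2.99 points, -4.13 to -1.80).

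The control BCL6 peaks under shared intervals numbered 3514, 5.14% of the 68393 in the list. A value in both control libraries was found in 14.3% of them (13.1% to 15.5%) and in 8.92% of the remaining peaks. Peak width moved with this: the median was 311.5 bp under shared intervals and 304 bp elsewhere. Among peaks of 250 to under 300 bp the shares were 0.374% and 0.376%, and among those of 500 bp or more they were 60.8% and 59.7%. Of the 5 width classes, the one from 300 to under 350 bp had a difference whose interval left out 0, with 4.54% against 3.12% (0.39 to 2.71 points).

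Relative to gene starts, the centres of shared intervals lay a little farther upstream by their median, -1079.5 bp against -977.5 bp for the others. They covered a gene start as often as the others, in 132 cases (3.67%) against 3.66%. They covered a start or lay within 500 bp of one in 26.6% against 28.99% (difference -2.41 points, -4.08 to -0.71). In windows of 250 bp, by the centre of each interval, the shared ones made up 27.5% to 29.5% of all activator STAT5 intervals from 2250 to 500 bp upstream and 21.3% to 24.4% from 500 bp upstream to 1000 bp downstream. At the far upstream end, from 3000 to 2250 bp, this share was not raised, with 21.4%, 24.2% and 25.5% in successive windows. In the last window, from 1000 to 1250 bp downstream, which few intervals reach, it was 31.2%, with 43 shared intervals and 95 others.

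**Figure D2:**
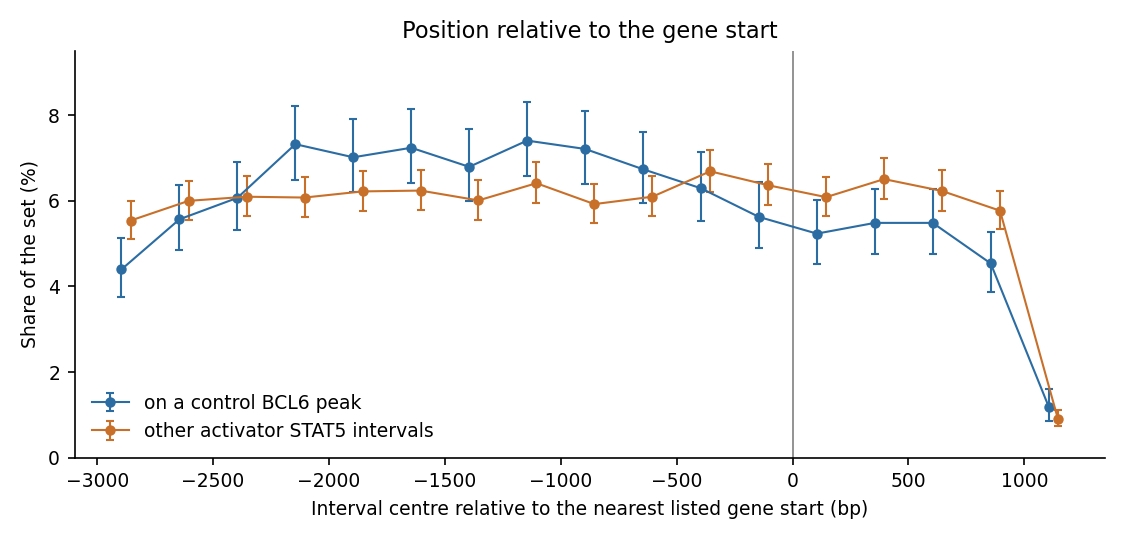
Position of interval centres relative to the gene start, in bp, as the share of each set falling in windows of 250 bp, for shared intervals (blue) and the other activator STAT5 intervals (orange), with exact 95% intervals. Shared intervals are above the others from 2250 to 500 bp upstream. They are below them from 3000 to 2250 bp upstream and from 500 bp upstream to 1000 bp downstream. The deposited list ends near 3000 bp upstream and 1000 bp downstream.

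The DNA words of the 2 factors were looked for in the 250 bases before the RefSeq start (GRCh38.p14) of genes whose shared interval overlapped that stretch, on both strands. The table held 99 of these 124 genes. TTCNNNGAA was found in 6 of 99 (6.06%, 2.26% to 12.7%), in 30 of 369 promoters under other activator STAT5 intervals (8.13%) and in 970 of all 15842 protein-coding promoters of the table (6.12%). Its stricter form TTCCNGGAA was in 2.02%, 2.17% and 0.972%, and TTCCTNGAA, the BCL6 core, in 3.03%, 2.44% and 1.16%. Every match of the stricter words is also a match of TTCNNNGAA. At these counts no share could be told from that of all promoters. The sequences are shown because these 6 promoters held a word and were overlapped by a shared interval, with the word in capitals. The first 3 hold the BCL6 core.
AGTRAP: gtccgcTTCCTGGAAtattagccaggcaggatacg
CLNS1A: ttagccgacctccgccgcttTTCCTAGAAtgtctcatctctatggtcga
SND1: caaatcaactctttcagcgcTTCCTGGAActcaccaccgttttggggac
MROH8: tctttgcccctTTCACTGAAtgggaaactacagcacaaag
OR6C74: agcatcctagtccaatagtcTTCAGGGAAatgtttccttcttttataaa
SPMIP2: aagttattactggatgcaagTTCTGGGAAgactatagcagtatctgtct

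AGTRAP, a protein that binds the angiotensin receptor, had its interval at 155 to 137 bp upstream on chromosome 1 (11795987 to 11796005, GRCh37), with STAT5 values of 3 and 4 and BCL6 values of 0 and 2. CLNS1A, a chaperone of spliceosome assembly, had one from 29 bp upstream to 109 bp downstream on chromosome 11 (77348742 to 77348880), with STAT5 values of 2 and 6 and BCL6 values of 2 and 0. SND1, a nuclease of the RNA silencing complex, had an interval of 7 bp on chromosome 7 (127292185 to 127292191), with STAT5 values of 4 and 8 and BCL6 values of 0 and 2. In each of the 3 the word lay outside the interval: at 244 to 236, 78 to 70 and 167 to 159 bp before the RefSeq start. At MROH8 (interval 356 to 218 bp upstream) and SPMIP2 (247 to 87 bp upstream) the word, at 239 to 231 and 97 to 89 bp, fell inside it by these distances. At OR6C74 the word, at 124 to 116 bp, lay between its 2 shared intervals. Ensembl starts of GRCh37 and RefSeq starts of GRCh38.p14 can differ, so such distances are approximate.

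Among protein-coding genes, 1490 of the 5229 with any activator STAT5 interval had a shared one, which is 28.5%, or 7.43% of the 20052 protein-coding symbols of the reference. Long non-coding RNA genes (26.9%), pseudogenes (27.8%) and small nucleolar RNA genes (31.9%) were close to this. Of the 2186 named genes with a shared interval, 1974 had 1, 194 had 2, 17 had 3 and PDE4DIP had 4. The gene lists below were compared with 28.5%, and their intervals are wide because the lists are short.

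Genes of the pathways behind the 2 factors were represented by few members. Of the JAK-STAT list, 4 of the 8 genes with an activator STAT5 interval had a shared one (exact interval 15.7% to 84.3%): IL6ST, IL5RA, PIAS4 and SOCS5. IL6ST, the signalling receptor gp130 of the interleukin-6 family, had 2 intervals on chromosome 5, at 55291966 to 55292152 and 55292468 to 55292630, both with STAT5 values of 2 and 10, which may be 1 peak listed in pieces. The BCL6 values were 4 and 0 at the first and 0 and 2 at the second. A listed 0 can stand in place of a value, so which control libraries had BCL6 at each is uncertain. SOCS5, a suppressor of cytokine signalling, had STAT5 values of 2 and 9 and BCL6 values of 0 and 4 on chromosome 2 (46927046 to 46927165). PIAS4, a SUMO ligase that restrains STAT proteins, had 2 and 4 for STAT5 and 4 and 0 for BCL6. IL5RA, the interleukin-5 receptor, had 2 intervals with STAT5 values of 2 and 2. The second activator library was the higher one at IL6ST, SOCS5 and PIAS4. Over all shared intervals the second was higher in 37.7% and the first in 23.5%.

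Among the corepressors and histone deacetylases known to work with BCL6, 3 of 5 genes with an activator STAT5 interval had a shared one (exact interval 14.7% to 94.7%). NCOR1, which BCL6 binds directly, had an interval 260 to 336 bp into the gene (chromosome 17, 16118674 to 16118750) with STAT5 values of 4 and 3 and BCL6 values of 0 and 2, and a second, farther upstream at 16121283 to 16121341, with 3 and 2 for STAT5 and 0 and 4 for BCL6. KDM2B, a histone demethylase of the BCOR complex, had 4 and 3 for STAT5 and 3 and 0 for BCL6 (chromosome 12, 122019203 to 122019526). MTA3, the NuRD subunit through which BCL6 is known to repress in B cells, had 3 and 2 for STAT5 and 2 and 0 for BCL6 (chromosome 2, 42722356 to 42722456). All 4 of these intervals had low STAT5 values and BCL6 in a single control library. By the values listed with them this is the usual form, since only 8.91% of all shared intervals had BCL6 in both control libraries. In the control BCL6 list itself, 14.3% of the peaks under shared intervals had a value in both. Every shared interval had a STAT5 value in both activator libraries.

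Known target genes gave little. None of the 7 BCL6 target genes of the list that had an activator STAT5 interval had a shared one (upper limit 41.0%). Of the STAT5 targets, 1 of 2 did: ID1, an inhibitor of basic helix-loop-helix factors, with STAT5 values of 2 and 4 and BCL6 values of 0 and 4, at 2822 to 2742 bp upstream. In the RAC1 and PAK list it was 3 of 7 (42.9%, 9.90% to 81.6%). These were ARPC4, a subunit of the ARP2/3 actin nucleator (STAT5 4 and 3, BCL6 0 and 2), LIMK2, a kinase downstream of PAK and ROCK that inactivates cofilin (2 and 5, then 0 and 2), and WASF1, the WAVE protein that RAC1 activates (2 and 2, then 2 and 0). The shared interval at WASF1 lay 101 to 313 bp into the gene, while those at ARPC4 and LIMK2 were more than 500 bp from the start.

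DNA repair lists differed in share but overlapped in their intervals. Base excision repair had 6 of 11 genes (54.5%, 23.4% to 83.3%), damage signalling 5 of 11 (45.5%, 16.7% to 76.6%), homologous recombination and Fanconi genes 4 of 14 (28.6%) and nucleotide excision repair 2 of 10. The highest smaller STAT5 value was 5, at RAD51B, of homologous recombination, with 5 and 8 for STAT5 and 2 and 0 for BCL6. BLM, the helicase of Bloom syndrome, had 3 shared intervals. The interval 495 to 238 bp upstream had 5 and 2 for STAT5 and 2 and 2 for BCL6, and was the only one of the 3 with BCL6 in both control libraries. FEN1, the flap endonuclease, and ERCC8, of transcription-coupled repair, were the genes of these lists with no control STAT5 interval at the start, and both had STAT5 values of 2 and 2 and BCL6 values of 0 and 2.

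**Figure D3:**
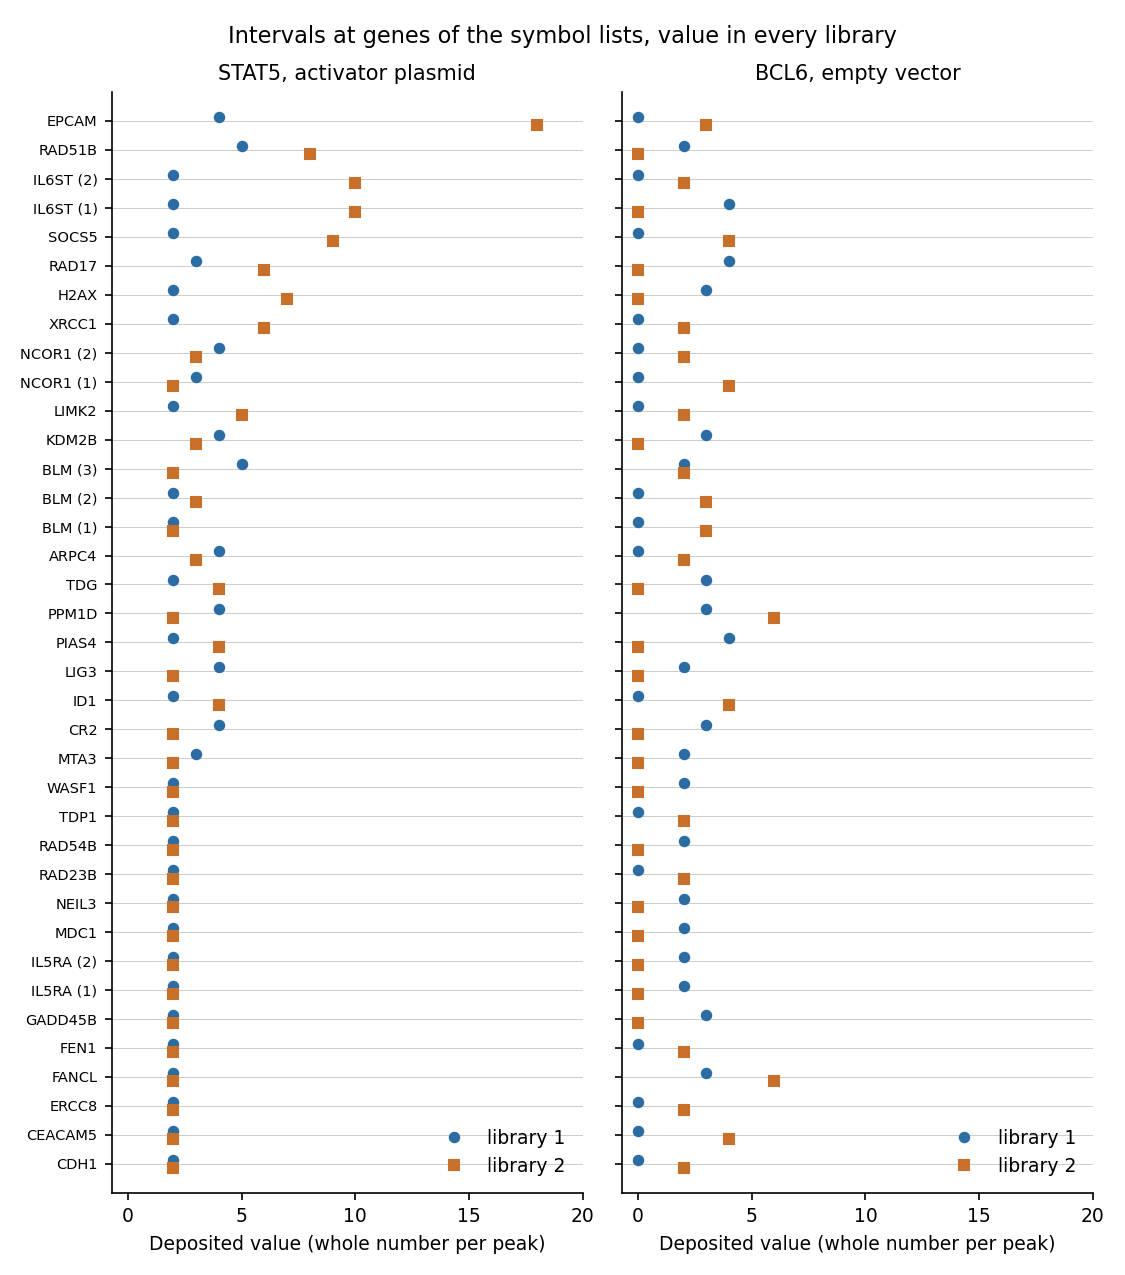
Values of shared intervals at genes of the symbol lists, with STAT5 under the activator plasmid (left) and BCL6 under the empty vector (right), circles for the first library and squares for the second, as deposited whole numbers. Numbers in brackets tell intervals at 1 gene apart. EPCAM has the highest STAT5 value (18, with 4 in the other library), and most genes have BCL6 in 1 control library only.

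Marker genes of cell types were checked against the source of the cells. Of the colon epithelium markers, 3 of 10 genes had a shared interval. EPCAM, an epithelial adhesion protein, had STAT5 values of 4 and 18 and BCL6 values of 0 and 3 at 105 to 594 bp into the gene. CEACAM5, the carcinoembryonic antigen, had 2 and 2 for STAT5 and 0 and 4 for BCL6, and CDH1, E-cadherin, 2 and 2 for STAT5 and 0 and 2 for BCL6. Of the B cell markers 1 of 5 did (CR2), and of the fibroblast and endothelial markers 0 of 5. Binding lists do not measure expression, so these counts do not identify the cells.

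Among gene families, 2 of the 51 lists with at least 10 genes had an exact interval that lay wholly above 28.5%, and none had one below it. These were the olfactory receptor pseudogenes and the keratin-associated proteins. The exact intervals are not adjusted for the 51 lists, so some can leave out 28.5% by counting error alone. Of 59 olfactory receptor pseudogenes with an activator STAT5 interval, 28 had a shared one (47.5%, 34.3% to 60.9%), with 31 intervals, 20 of them on chromosome 11. Intact olfactory receptor genes, whose products detect odorants, were at 29 of 113 (25.7%, 17.9% to 34.7%), with 21 of 36 intervals on the same chromosome. Keratin-associated proteins of hair were at 10 of 19 (52.6%, 28.9% to 75.6%), but these 10 genes had 7 intervals in all, 6 of them in the cluster on chromosome 17. KRTAP4-2, there, had an interval over its start with STAT5 values of 2 and 7 and BCL6 values of 0 and 4. Members of these clustered families have near-identical copies, and the counting of reads that match several copies is not described in the labels or notes, so their values are uncertain.

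Families of basic cell functions were on both sides of the background. MAP kinases and their phosphatases were at 8 of 20 (exact interval 19.1% to 63.9%), heat shock proteins and chaperones at 10 of 26 (38.5%), mitochondrial ribosomal proteins at 10 of 29 (34.5%) and respiratory complex subunits at 11 of 32 (34.4%). Zinc finger ZNF genes were at 28 of 112, and ribosomal proteins of the cytosol at 4 of 27 (14.8%, 4.19% to 33.7%). The exact interval of each of these families took in 28.5%. HSPA4, a heat shock 70 protein, had STAT5 values of 3 and 6 and BCL6 values of 5 and 0. MRPL52, a mitochondrial ribosomal protein, and SLC7A7, an amino acid transporter read from the other strand, had the same interval on chromosome 14 (23299871 to 23300181), with 4 and 8 for STAT5 and 5 and 0 for BCL6.

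**Figure D4:**
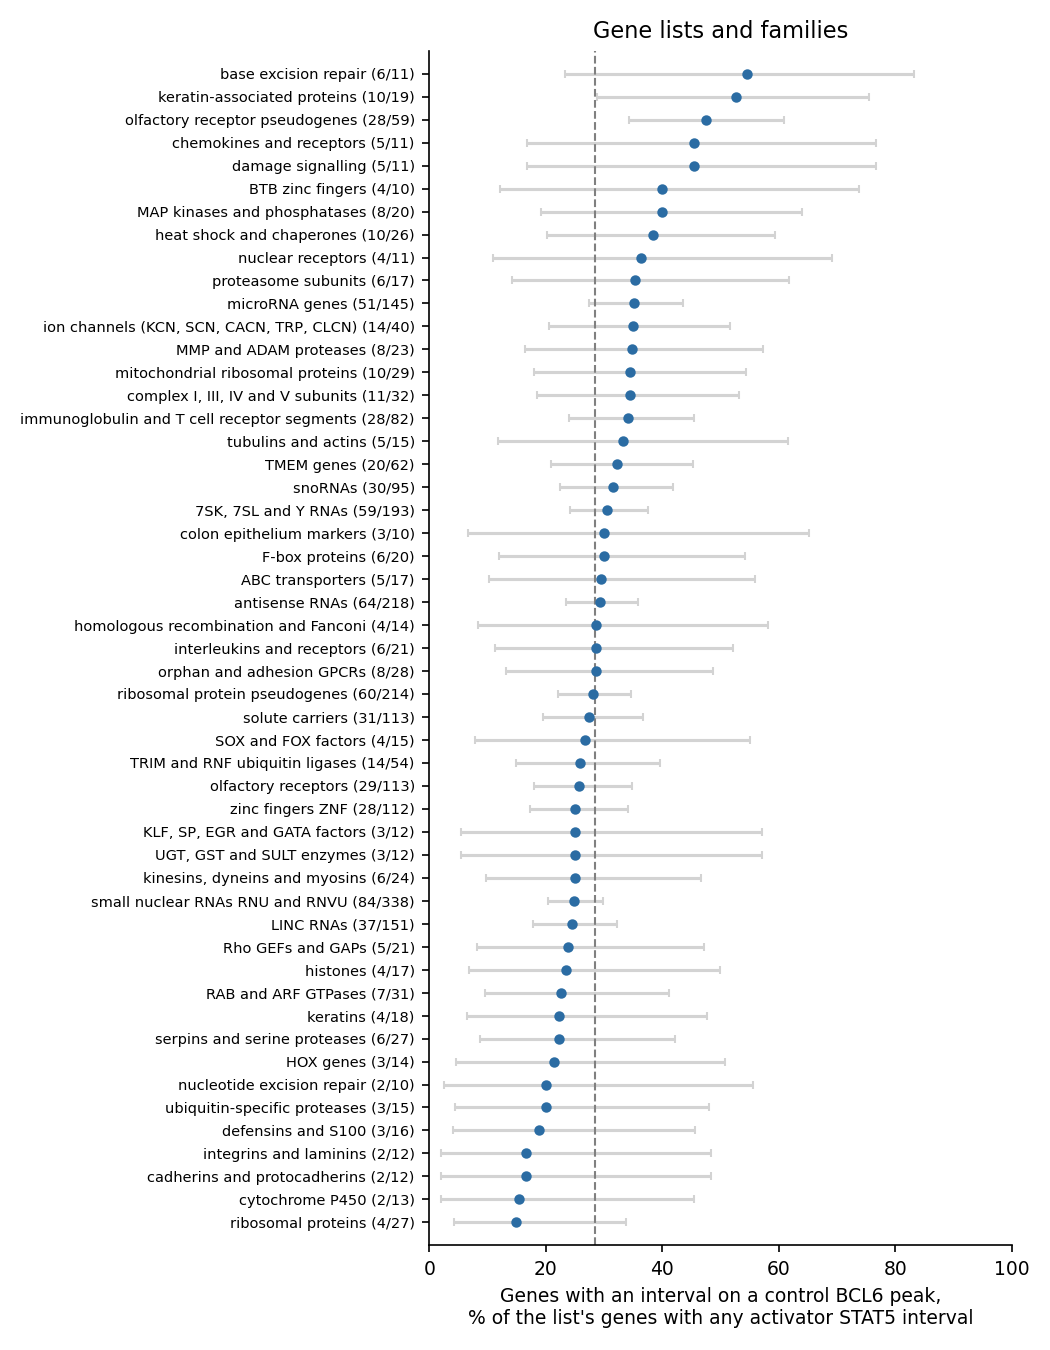
Share of the genes with any activator STAT5 interval that had one on a control BCL6 peak, in percent, for each list or family with at least 10 such genes. Points are shares, bars exact 95% intervals, brackets the counts, and the dashed line is 28.5%, the share over all named genes. Nearly all bars cross the line, and the olfactory receptor pseudogenes (28 of 59) lie to its right.

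The protein-coding genes with the highest values in both activator libraries were few. PDE4DIP, a scaffold of the centrosome and Golgi on chromosome 1, led with 10 and 10 at 145076468 to 145076516 (BCL6 0 and 8) and 8 and 19 at 145078083 to 145078345 (BCL6 5 and 0). The third interval, 145075985 to 145076097, had 10 and 2 (BCL6 7 and 0). The fourth, 145078509 to 145078726, had 3 and 2 for STAT5 and the highest BCL6 values among the named genes, 15 and 11. The PDE4DIP region has near-identical copies elsewhere on chromosome 1, and reads from them may have been counted here or lost, so these values are uncertain. FANK1, a protein with ankyrin repeats, had 2 intervals on chromosome 10, with STAT5 values of 15 and 8 and of 6 and 12, and BCL6 in the second control library alone, at 4 and at 7.

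UBE2J1, a ubiquitin-conjugating enzyme of the endoplasmic reticulum, had 7 and 7 for STAT5 and 0 and 2 for BCL6, from 34 to 96 bp into the gene. CCDC7 also had 7 and 7, with BCL6 in both control libraries (2 and 2), at 356 to 12 bp upstream. PIGF, an enzyme of glycosylphosphatidylinositol anchor synthesis, had 6 and 14 in an interval of only 3 bp (chromosome 2, 46845268 to 46845270). PGAP2, which matures the same anchors, had 5 and 8, and TTC7A, a scaffold of phosphatidylinositol 4-kinase, had 7 and 5 with BCL6 at 2 and 4. Among genes with values in all 4 libraries, ARFIP2, arfaptin-2, a protein known to bind both ARF GTPases and RAC1, had 3 and 7 for STAT5 and 3 and 7 for BCL6 (chromosome 11, 6504112 to 6504215). MCOLN3, THADA and TMEM247 also had a value in all 4 libraries. The intervals at UBE2J1, TTC7A, ARFIP2, MCOLN3 and THADA lay directly beside a control STAT5 peak. So did the FANK1 interval with STAT5 values of 15 and 8. These can be pieces left by the cut.

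On the map of the genome, chromosome 2 stood out among the autosomes, with 493 of its 1549 activator STAT5 intervals shared (31.8%, 29.5% to 34.2%). Chromosome 11 followed with 282 of 930 (30.3%, 27.4% to 33.4%). The lowest shares were on chromosome 21, 25 of 148 (16.9%, 11.2% to 23.9%), and chromosome X, 11 of 96 (11.5%, 5.86% to 19.6%). On these chromosomes the number of control BCL6 peaks per listed gene start was 1.76 (chromosome 2), 1.81 (11), 1.35 (21) and 0.688 (X), against 1.55 over all. Others did not follow the same order. Chromosome 20 had the highest density, 1.93, with a share of 28.5%. Chromosomes 19 (1.25) and 22 (1.32) were less dense than chromosome 21, with shares of 23.7% and 22.7%. The part of this density in the shares was not tested.

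**Figure D5:**
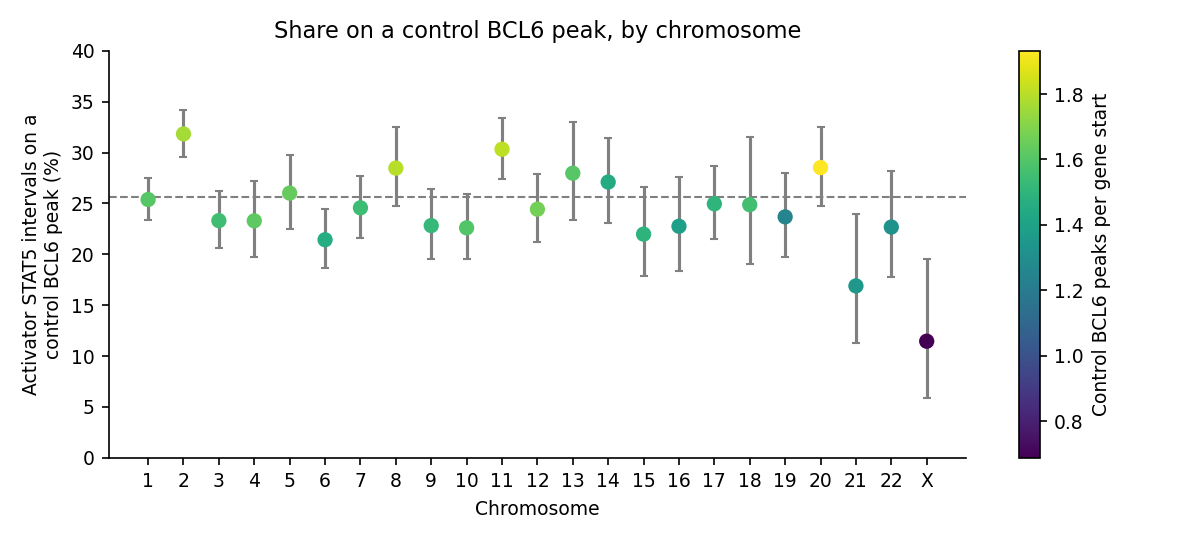
Share of activator STAT5 intervals on a control BCL6 peak, in percent, for each chromosome, with exact 95% intervals and the dashed line at 25.6%. Colour gives the control BCL6 peaks per listed gene start. Chromosomes 2 and 11 lie above the line and chromosomes 21 and X below it, and X also has the lowest peak density, 0.688.

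On chromosome 2 the share was highest over a long stretch, whose limits were chosen after its share was seen. Between 30 and 75 Mb, 268 of 628 activator STAT5 intervals were shared (42.7%, 38.8% to 46.7%), while the rest of the chromosome was at 24.4% (21.7% to 27.3%), with single windows of 5 Mb above that, such as 22 of 59 (37.3%) from 230 to 235 Mb. This stretch had 2.63 control BCL6 peaks, 2.37 control STAT5 peaks and 0.828 activator STAT5 intervals per gene start, against 1.55, 1.55 and 0.318 over all chromosomes, so these 3 lists were dense there. It held 7.46% of the shared intervals, and without it the share over the genome was 24.8%. The first 5 Mb of chromosome 11 were similar, with 50 of 114 shared (43.9%, 34.6% to 53.5%) and 2.15 control BCL6 peaks per gene start. Over 308 windows of 5 Mb the share ran from 22.5% in the 77 windows with the fewest BCL6 peaks per gene start, through 24.2% and 24.9% in the next sets of 77, to 32.4% in the 77 with the most.

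Shared intervals lay close together in places. Runs of the other activator STAT5 intervals were not counted, so runs cannot be called particular to the shared ones. In separate windows of at most 100 kb, filled from the fullest down, 3 stretches held 7 and 4 held 6, and all 3 of the largest were on chromosome 2. These 3 stretches held 8, 13 and 10 activator STAT5 intervals in all, in genome order. The first of these, 37385716 to 37461751, took in EIF2AK2, the RNA-activated kinase PKR, with STAT5 values of 3 and 4 and BCL6 values of 0 and 6, as well as SULT6B1, CEBPZOS and CEBPZ. The second, 55449063 to 55542281, held 7 of its 13 activator STAT5 intervals as shared ones, 2 of them at RPS27A, a ubiquitin and ribosomal protein fusion (4 and 2, then 4 and 3 for STAT5, and 2 and 0 for BCL6 at both). The third, 55744751 to 55842468, began at CFAP36, with 2 and 4 for STAT5 and 2 and 0 for BCL6. Next to it, 55644732 to 55685241 held 6, with CCDC88A, the actin-binding protein girdin, among its genes.

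The runs of 6 outside chromosome 2 were on chromosomes 11 and 14. On chromosome 11, 192437 to 287313 took in SCGB1C1, a secretoglobin, with STAT5 values of 3 and 18 and BCL6 values of 6 and 0 in an interval of 22 bp, as well as RIC8A, BET1L, NLRP6 and PGGHG. NLRP6, an innate immune sensor of the intestine, had an interval over its start with 3 and 2 for STAT5 and 2 and 0 for BCL6. Farther along, 4959820 to 5056522 held 6 at the olfactory receptor pseudogenes OR51A3P, OR51A5P, OR51P1P and OR52J2P. On chromosome 14, 24771880 to 24834549 took in DHRS1, the leukotriene B4 receptor genes LTB4R and LTB4R2, CIDEB, ADCY4 and NFATC4. NFATC4, a calcineurin-regulated transcription factor, had 9 and 2 for STAT5 and 0 and 3 for BCL6, at 475 to 331 bp upstream.

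Set against the inhibitor BCL6 list, which has 1652 intervals, 15 shared intervals (0.417%, 0.234% to 0.688%) had a base in common with one. The other activator STAT5 intervals were at 58 of 10454 (0.555%), a difference of -0.137 points (-0.368 to 0.161). None of the 1652 overlapped a control BCL6 peak and 236 ended directly beside one. That list thus has the form of peaks with control BCL6 cut out. The cut limits its overlap with intervals chosen on those peaks, and its part in the low share was not tested. Among protein-coding genes, the shared ones lay at E2F5, a cell cycle factor, ANTXR1, IL1F10, AHRR, CEP83 and RAI1. These genes are named because they are few, and were chosen after their values were seen. At RAI1 the STAT5 values were 2 and 3 and the BCL6 control values 0 and 4. By gene start, 220 of 3690 with a shared interval (5.96%, 5.22% to 6.78%) also had an inhibitor BCL6 interval, against 4.67% (4.24% to 5.13%) of those with other activator STAT5 intervals alone. For control STAT5 the same figures were 89.4% and 86.1%.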

How the data were processed

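ChIP-seq lists of 9 of the series' 14 libraries were used. The submitters' processing notes name CASAVA 1.8.2, Bowtie 0.12.7 and GRCh37. No source used here names a peak caller or threshold. As values, the authors deposited whole-number values per interval and library, read here as counts although the header does not name them, with other columns for width and distance to an Ensembl gene start, both in bp. Depth is unknown. Every member was found unchanged in the activator STAT5 list. Overlap meant at least 1 shared bp. Neighbouring intervals can repeat the value of 1 peak, so loci joined within 1 kb were also counted.

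Members and gene lists were chosen with earlier results of these data known, and 2 of the 56 name patterns (tubulins, integrins) were narrowed after the files were seen, beside 14 symbol lists. Symbols were matched to a RefSeq table of GRCh38.p14 (7625 of 7673). Genes were named by a rule: the 10 intervals with the highest smaller activator value, the 10 with the highest smallest value over 4 libraries, the 5 genes with most intervals, genes of the symbol lists, the 2 highest intervals of a family with at least 5 genes, and the 5 densest runs. Some genes that the rule names are not reported here. Python 3.11.15, pandas 2.3.3 and scipy 1.17.1 were used, and the overlap functions were tested on simulated data.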

Additional observations from a re-analysis of the deposited data

How the results depend on the processing

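The share of activator STAT5 intervals on a control BCL6 peak, 25.6%, depended on what counts as a peak: 18.6% with at least 50% of the interval covered, 3.84% on peaks with a value in both control libraries, and 13.8% to 15.8% when 1 control BCL6 library was left out. It was 29.5% with a value of at least 3 in both activator libraries, 28.1% at 100 bp or more, 27.3% for loci joined within 1 kb and 24.8% without chromosome 2 from 30 to 75 Mb, an alternative chosen after seeing the data. Contact with a control STAT5 peak, 19.9%, became 25.5% at values of at least 3, 14.2% at 100 bp or more, and 9.94% to 12.3% without 1 control STAT5 library. Nearness to a gene start, 26.6%, was 14.4% within 250 bp and 50.3% within 1 kb. Protein-coding genes, 43.4%, were at 45.8% at values of at least 3. BCL6 peaks with both libraries, 14.3%, were at 16.0% with 50% covered, 2.42% at widths of 250 to 350 bp (1.68% of other peaks) and 15.7% at values of at least 3. A value of at least 3, found in 19.5% in both activator libraries, was found in 37.7% and 49.2% in 1 library alone. The share of genes, 28.5%, became 31.0%, 29.5% and 21.1% at values of at least 3, at 100 bp and at 50% covered. Of 52 families, 51 stayed within their interval at 100 bp, 45 at 50% covered and 52 without the stretch of chromosome 2, and at values of at least 3 it was 29 of 51. The low values and the unknown depth limit every single interval. No paired analysis was possible because the results come from counts without a test. The running numbers in the titles pass through the groups in the same order, but the labels do not say that they mark shared sets.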

Other observations

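Beside FEN1, ERCC8 and MRPL52, other genes with a shared interval had no control STAT5 interval around the start. The following were named after their values were seen, for high values in both activator libraries. KDM6B, a demethylase of histone H3 lysine 27, had STAT5 values of 4 and 4 and control BCL6 values of 3 and 0. TRMT11, a tRNA methyltransferase, had 4 and 7 for STAT5 and 2 and 0 for BCL6, and LUC7L, a splicing factor, had 5 and 4 for STAT5 and 0 and 3 for BCL6. The interval at LUC7L, of 41 bp, lay directly beside a control STAT5 peak that is not listed at this gene start. It can therefore be a remnant of the cut. At each of KDM6B, TRMT11 and LUC7L a single control BCL6 library had a value.

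Chemokine genes and receptors had 5 of 11 genes with a shared interval (45.5%, 16.7% to 76.6%), among them CCR9, a receptor of gut-homing lymphocytes, with an interval over its start (STAT5 3 and 2, BCL6 5 and 0), and CCR3, the eotaxin receptor (STAT5 3 and 4, BCL6 0 and 2). PSME1, a subunit of the proteasome activator PA28, had 3 and 5 for STAT5 and 2 and 3 for BCL6. RNF31, of the linear ubiquitin ligase complex, had 4 and 9 for STAT5 in an interval of 433 bp.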
